A study of Mus musculus with 6 samples.

Results

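The 8 genes described here are Pcp2, Pcp4, Car8, Ppp1r17, Homer3, Grid2ip, Slc1a6 and Itpr1, a set of genes rich in Purkinje cells of the cerebellum, out of 32531 gene entries counted in each library. They were chosen by name, with their high counts in IP replicate 2 already known, so the contrast of that library with the other IP libraries is a description and carries no test. All 6 libraries came from the midbrain of adult mice of the transgenic line Lhx5-TRAP DT154, in which an EGFP-Rpl10a fusion tags ribosomes under control of Lhx5 regulatory sequence, and every library, input included, came from such mice with no treatment. In translating ribosome affinity purification (TRAP) the tagged polysomes are pulled down with antibodies against EGFP. The 3 libraries titled IP hold the pulled-down RNA, and the 3 titled input carry a further label that calls them unbound. The labels do not give sex, the number of animals or whether animals were pooled, and a pull-down from mice without the tag was not used here. Because the labels do not state that replicates were separate animals, p-values measure only the spread between these libraries, which may be technical. Same-numbered IP and input libraries share a sequencing lane number.

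Purkinje cells are the large GABAergic output neurons of the cerebellar cortex, a structure that lies directly behind the midbrain, and they are a cell type known to express both Lhx1 and Lhx5. Glutamate from parallel fibres acts on their spines through metabotropic receptors, and phospholipase C then makes inositol trisphosphate, which opens calcium channels of the endoplasmic reticulum. Several of the 8 genes belong to this route: Homer3 is a scaffold that ties receptors to the calcium channel, Itpr1 is the channel, and Car8 is a carbonic anhydrase-related protein without enzyme activity that binds the channel and lowers its affinity for inositol trisphosphate. Slc1a6 (EAAT4) takes up glutamate at the spines, and Grid2ip (delphilin) is a scaffold of the glutamate receptor GluD2. Pcp2 is a GoLoco protein that acts on G protein alpha subunits, Pcp4 (PEP-19) binds calmodulin, and Ppp1r17 (G-substrate) is an inhibitor of protein phosphatases that is phosphorylated by cyclic GMP-dependent protein kinase. The nuclear receptor Rora, needed for Purkinje cells to mature, binds sites built on the core site AGGTCA.

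Upstream sequences are shown as background on the genes, and their part in the differences between libraries was not tested. For Pcp2 and Pcp4 the RefSeq and GENCODE starts lie within 2 bases of each other and the window holds the AGGTCA core site. RefSeq promoters on GRCm38.p6 (the assembly also called mm10) were matched for 5 of the 8 genes: Pcp2, Pcp4, Homer3, Grid2ip and Slc1a6. The 250 bases before the start are given 5′ to 3′ on the gene's strand, with AGGTCA or its reverse complement TGACCT in capitals. Pcp2 is on the minus strand, chr8:3625548-3625797, and Pcp4 on the plus strand, chr16:96467356-96467605.
Pcp2: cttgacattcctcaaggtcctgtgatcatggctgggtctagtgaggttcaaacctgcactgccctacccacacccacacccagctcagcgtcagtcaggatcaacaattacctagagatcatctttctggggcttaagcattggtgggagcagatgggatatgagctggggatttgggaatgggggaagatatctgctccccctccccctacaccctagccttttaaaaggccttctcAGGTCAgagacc
Pcp4: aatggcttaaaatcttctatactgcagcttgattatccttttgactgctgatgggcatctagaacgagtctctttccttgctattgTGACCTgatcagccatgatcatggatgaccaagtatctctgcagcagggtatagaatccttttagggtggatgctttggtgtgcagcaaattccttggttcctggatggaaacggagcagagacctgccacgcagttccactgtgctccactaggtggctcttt

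The core site began 12 bases before the RefSeq start of Pcp2 and 164 bases before that of Pcp4. The Homer3 window held 1 match, shown with its neighbours on the plus strand at chr8:70282830-70282859. It precedes the RefSeq start but lies inside the gene as GENCODE annotates it.
Homer3: agttcctcctctTGACCTcctggtgccctc
The windows of Slc1a6 and of 2 RefSeq starts inside Grid2ip did not hold these letters. Of 32851 promoter windows of the same length in the table, 14% held AGGTCA on either strand, so a match is common and describes letters only. The motif TAATTA, a core that LIM homeodomain proteins bind and that reads the same on both strands, was in 4.84% of all windows. It was in none of the windows shown and in 1 window of a start site inside Pcp2.

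All libraries held between 38058239 and 45841499 gene counts, so 3 counts, taken as the lower limit of detection, amounted to 0.0688 to 0.0741 CPM (a gene’s count scaled to a fixed library total), and such limits cover counting error only. CPM values are scaled by TMM, a factor that corrects for differences in library composition. Lhx5, whose regulatory sequence drives the tag, stood at 46.8, 56.0 and 49.1 CPM in IP replicates 1, 2 and 3, and its relative Lhx1 at 52.8, 68.7 and 54.3. IP replicate 2 was thus 1.14 times the higher of the other IP libraries for Lhx5 and 1.27 times for Lhx1. As a check of the tissue label, 12 midbrain marker genes summed to 738, 704 and 474 CPM in the IP replicates and to 507, 435 and 207 in the input replicates. Most of the IP sum was Slc17a6, a gene of glutamatergic neurons in general, at 643, 640 and 377 CPM. All of the 12 genes but Otx2 were lowest among inputs in input replicate 3, by unlike amounts. Gata3 had 14.6, 14.4 and 0.741 CPM in the input replicates and Pax7 had 6.66, 6.69 and 0.0987, both picked for their large fall. Pou4f1 had 7.52, 6.10 and 5.26 CPM, and Otx2 had 22.7, 18.8 and 24.5. Forebrain markers summed to 313, 421 and 258 CPM in IP and to 845, 1105 and 1679 in input, and 5 choroid plexus genes to 27.4, 7.20 and 9.52 in IP and to 369, 18.9 and 1362 in input. Input replicate 3 was high in the striatal genes Drd1 (73.3 CPM, against 11.2 and 3.37 in input replicates 1 and 2) and Ppp1r1b (316 CPM, against 55.1 and 21.7). In tissue RNA of this kind, fewer cells of a type and less RNA per cell cannot be told apart.

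Pcp2, on chromosome 8 from 3623371 to 3625545 (GENCODE M21, GRCm38), showed the largest ratio between IP libraries of the 8 genes. Its level was 0.167, 77.9 and 0.117 CPM in IP replicates 1, 2 and 3, from 7, 3191 and 5 counts. In the input replicates it was 0.505, 3.03 and 0.296 CPM. Replicate 2 was the highest library on both sides, and IP replicates 1 and 3 lay below every input library. The ratio of IP replicate 2 to the higher of the other IP libraries was 466, with a 95% exact counting interval of 226 to 1160. Among 13393 tested genes with at least 1 CPM in IP replicate 2, that ratio ranked 2. Pcp2 shares exon sequence with Pet100 on the opposite strand, and the counting is not stated to use strand.

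Car8, on chromosome 4 from 8143362 to 8239041, had the highest level per kb of exon of the 8 genes in IP replicate 2. Its level was 22.4, 555 and 20.9 CPM in IP replicates 1, 2 and 3 and 23.9, 53.1 and 19.1 CPM in the input replicates. IP replicates 1 and 3 lay within the range of input replicates 1 and 3, and replicate 2 was again highest on both sides. The ratio in IP was 24.8 (95% counting interval 23.3 to 26.5).

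Ppp1r17, on chromosome 6 from 56017497 to 56032689, had 2.01, 55.1 and 0.98 CPM in the IP replicates and 0.697, 4.93 and 3.68 in the input replicates. IP replicates 1 and 3 of Ppp1r17 lay inside the input range and IP replicate 2 far above it, at a ratio of 27.5 (22.1 to 34.6) to the higher IP library. Homer3, on chromosome 8 from 70282827 to 70294361, had 0.406, 12.9 and 0.187 CPM in the IP replicates against 2.16, 3.44 and 2.49 in input. For Homer3, IP replicates 1 and 3 lay below all input libraries and IP replicate 2 above them, at a ratio of 31.7 (19.6 to 54.8). Reads in exons that Homer3 shares with Ddx49 on the other strand cannot be assigned without strand.

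Grid2ip, on chromosome 5 from 143357338 to 143392152, had 1.53, 7.62 and 0.77 CPM in IP and 6.03, 3.83 and 6.54 in input. Here IP replicate 2 stood only slightly above the input libraries, although its ratio to the other IP libraries was 4.98 (3.80 to 6.63). Itpr1, on chromosome 6 from 108213096 to 108551109, had 111, 239 and 81.7 CPM in IP and 175, 169 and 272 in input. IP replicate 2 of Itpr1 lay inside the input range, and its ratio to the higher IP library was 2.16 (2.08 to 2.24), the lowest past 2-fold among the 8 genes. Grid2ip overlaps Gm20635, and Itpr1 overlaps Gm44101 and Gm44040, on the other strand.

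The remaining 2 genes did not reach 2-fold. Pcp4, on chromosome 16 from 96467606 to 96525793, had 63.7, 137 and 83.0 CPM in IP and 57.6, 38.4 and 73.8 in input, a ratio of 1.65 (1.58 to 1.72) in IP. It shares exon sequence with Igsf5 on the same strand. Input replicate 2 was the lowest input library for Pcp4 and the highest was input replicate 3, the library high in striatal genes. The part of those striatal genes in the values of Pcp4, Itpr1 and Grid2ip, all highest among inputs in input replicate 3, was not tested. Slc1a6, on chromosome 10 from 78780496 to 78814765, had 15.1, 18.9 and 7.60 CPM in IP and 6.63, 7.29 and 3.83 in input. IP replicates 1 and 2 of Slc1a6 were near each other, at a ratio of 1.25 (1.13 to 1.39), and all IP libraries lay above all input libraries.

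**Figure D1:**
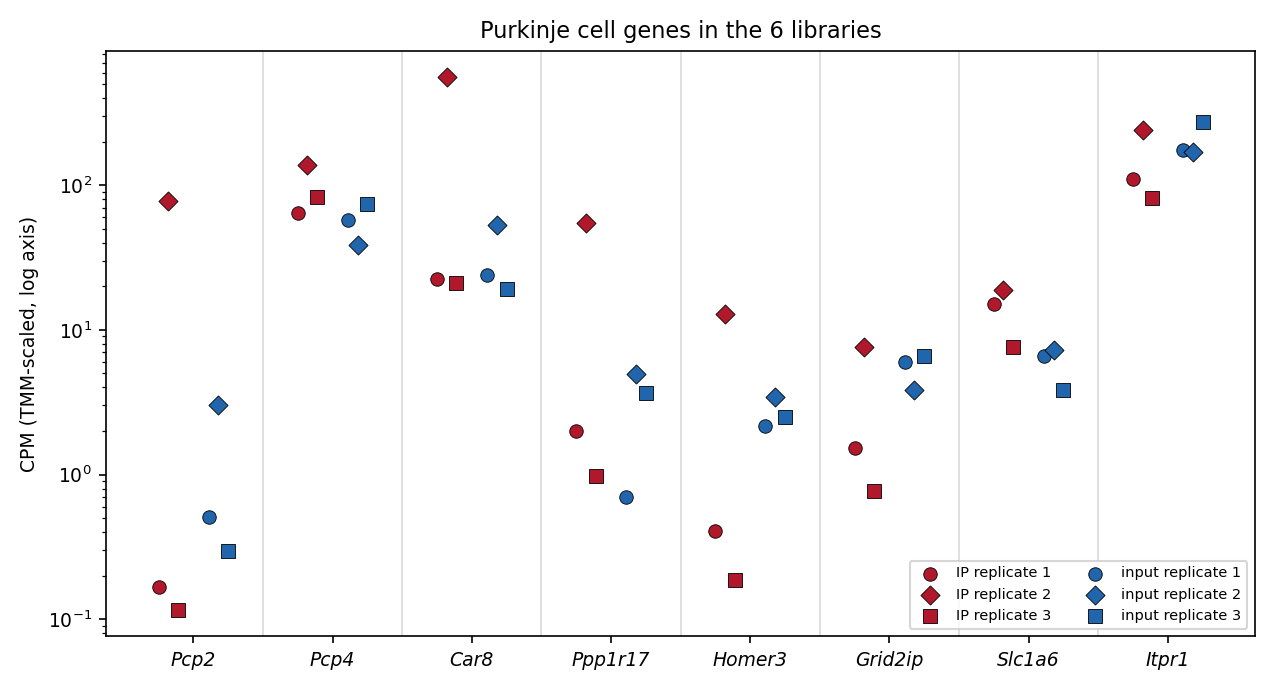
CPM (TMM-scaled, log axis) of the 8 Purkinje cell genes, with 1 point for each library, red for IP and blue for input, and the shape giving the replicate number. The red diamond of IP replicate 2 is the highest IP point for every gene, from 77.9 CPM against 0.167 and 0.117 for Pcp2 to 18.9 against 15.1 and 7.60 for Slc1a6.

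Scaled by exon length, the order of the genes changed. In IP replicate 2, Car8 had 144 CPM per kb of exon, Pcp4 133, Pcp2 42.6, Ppp1r17 31.4, Itpr1 13.0, Slc1a6 8.78, Homer3 3.74 and Grid2ip 1.13. The difference between IP replicate 2 and the mean of IP replicates 1 and 3 was 139 CPM per kb for Car8, 61.7 for Pcp4, 42.6 for Pcp2 and 30.5 for Ppp1r17. It was 7.78 for Itpr1, 3.66 for Homer3, 3.51 for Slc1a6 and 0.955 for Grid2ip. Thus Pcp4, at a ratio of only 1.65, had a larger difference per kb than Pcp2, at a ratio of 466, and was already at 62.1 and 80.9 CPM per kb in IP replicates 1 and 3.

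In all, IP replicate 2 was the highest IP library for 8 of the 8 genes and passed 2-fold with at least 1 CPM for 6. Of the 17197 genes tested, 0.994% passed the same fold in that library, and IP replicate 2 was the highest IP library for 25.3%. The contrast chose the genes, so these counts are descriptive. With IP replicate 1 or IP replicate 3 taken in place of replicate 2, 0 of the 8 genes passed the fold, against 0.698% and 0.727% of all tested. That 0 was fixed in advance, because IP replicate 2 was the highest IP library for all 8.

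The rule that chose the genes did not use the input libraries, although earlier results from them were known. Input replicate 2 passed 2-fold over the higher of input replicates 1 and 3 for 2 of the 8 genes, against 0.436% of the 17197 tested. These were Pcp2, at 5.99 times (95% counting interval 3.76 to 10), and Car8, at 2.22 times (2.06 to 2.39). Homer3 stood at 1.38 (1.06 to 1.79), Ppp1r17 at 1.34 (1.08 to 1.66) and Slc1a6 at 1.10 (0.932 to 1.30), so that input replicate 2 was the highest input library for 5 of 8 genes, against 28.9% of all tested. Itpr1, Grid2ip and Pcp4 were lower there than in another input library, at 0.623, 0.585 and 0.520. A single library stood on 1 side of this contrast, which leaves it without a replicate check, and the intervals cover counting error only. Of 171 genes past the fold in IP replicate 2 and 75 in input replicate 2, 5 were in both sets, 2.92% of the former and 6.67% of the latter, and they were Pcp2, Car8, Fezf2, Galnt3 and AK042610, the last 3 named after their values were seen.

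**Figure D2:**
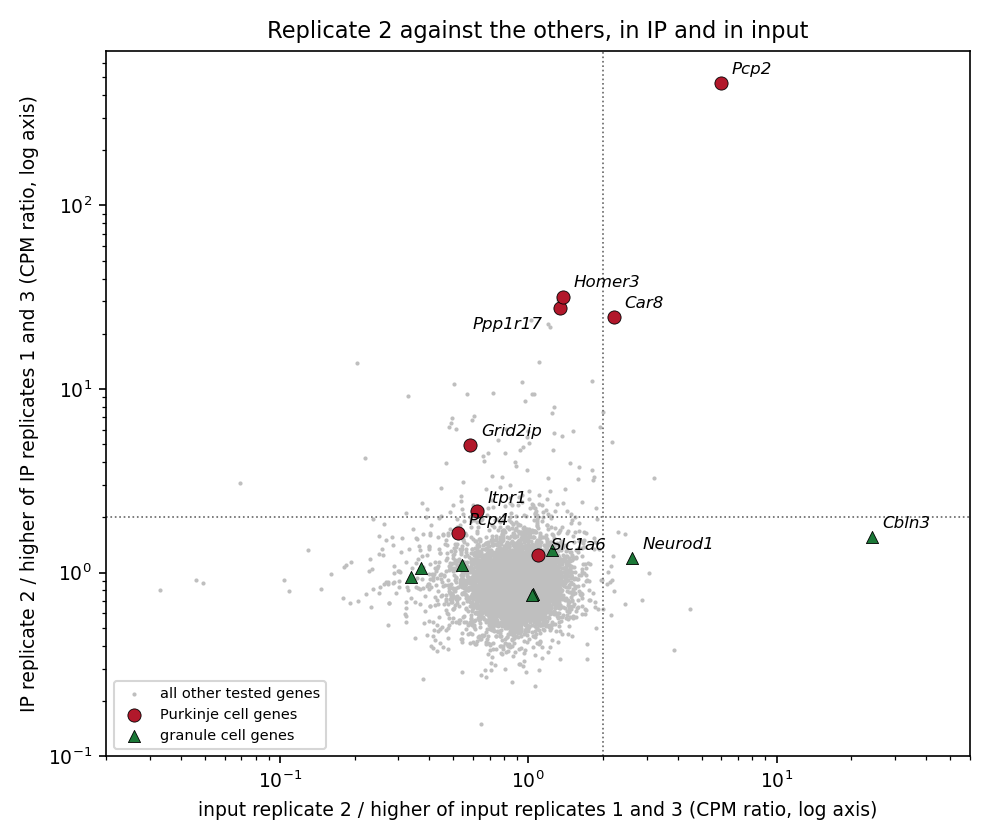
Each point is a gene, placed by the CPM ratio of input replicate 2 to the higher of input replicates 1 and 3 (horizontal, log axis) and the same ratio in IP (vertical, log axis), for tested genes with at least 1 CPM in both libraries of replicate 2. Dotted lines mark 2-fold: Pcp2 (5.99 and 466) and Car8 (2.22 and 24.8) lie past both, while the granule cell gene Cbln3 (24.3 in input and 1.57 in IP) lies past the input line only.

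Genes of other cerebellar cells were read beside these. Of 10 granule cell genes, 3 passed 2-fold in input replicate 2 and 0 of the 8 with at least 1 CPM did so in IP replicate 2, against 0.436% and 0.994% of all genes tested. Cbln3, a cerebellin made by granule cells, had 0.769, 19.2 and 0.790 CPM in input replicates 1, 2 and 3 and 2.89, 4.57 and 2.92 in IP. Neurod1, a transcription factor of granule cells and other glutamatergic neurons, had 9.21, 25.2 and 9.63 CPM in input and 8.10, 10.8 and 8.96 in IP. Gabra6, a GABA receptor subunit gene of granule cells, reached 6.58 CPM in input replicate 2 against 0.168 in the first input library and no counts in the third, and at most 0.952 CPM in IP. These 3 genes were named after their values were seen.

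No other gene of the granule cell list passed 2-fold in input replicate 2, although that library was the highest input for 7 of the 10. By abundance its leading genes were Zic1, Etv1 and Zic2, zinc finger and ETS factors also found outside the cerebellum. Input replicate 2 held 49.2 CPM of Zic1 against 80.1 and 133 in input replicates 1 and 3. The summed level of the list was 84.0, 90.9 and 80.0 CPM in IP and 188, 201 and 257 in input. No gene of the list was at 0 in IP replicate 2 or input replicate 2, 1 was at 0 in IP replicate 3 and 2 in input replicate 3.

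Bergmann glia genes summed to 147, 146 and 153 CPM in IP and to 400, 381 and 317 in input. Of these genes, 0 of 5 with at least 1 CPM passed 2-fold in IP replicate 2 and 0 of 6 in input replicate 2. Of all genes tested, 0.994% passed in IP replicate 2 and 0.436% in input replicate 2, so a count of 0 in a list this short is near those shares. Cerebellar interneuron genes summed to 361, 361 and 257 CPM in IP and to 222, 227 and 144 in input, and 1 of 7 passed in IP replicate 2 and 0 of 8 in input replicate 2. That gene was Tfap2b, an AP-2 transcription factor, with 6.91, 51.0 and 6.44 CPM in IP and 39.2, 48.7 and 0.913 in input. Hox genes, markers of the hindbrain, were low in all libraries, with summed levels of 1.89, 0.977 and 3.52 CPM in IP and 6.15, 7.20 and 0.346 in input. Of these 10 genes, 3, 4 and 3 had no counts in IP replicates 1, 2 and 3, and 0, 1 and 7 had none in the input replicates. The part of these cell types in the values of the 8 genes was not tested.

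Because IP and input of 1 number share a lane number, the ratio of IP to input was taken within each number. For Pcp2 it was 0.331, 25.8 and 0.394 for numbers 1, 2 and 3. Car8 gave 0.934, 10.5 and 1.10, and Ppp1r17 gave 2.88, 11.2 and 0.266. Ppp1r17 was thus above input for number 1 and below it for number 3. Homer3 gave 0.188, 3.74 and 0.0749, and Grid2ip gave 0.253, 1.99 and 0.118. Itpr1 crossed 1 in the same way, with 0.633, 1.41 and 0.301. Pcp4 (1.11, 3.56 and 1.12) and Slc1a6 (2.27, 2.59 and 1.99) were above 1 for every number. Number 2 gave the highest ratio for 8 of the 8 genes and for 27.2% of all tested genes, with the same library behind it that chose the genes. Lhx1 and Lhx5 did not follow this order: their ratios were highest for number 3, at 16.4 and 22.4, and number 2 gave 9.73 and 14.7. In the input replicates Lhx1 had 8.73, 7.06 and 3.31 CPM and Lhx5 had 3.92, 3.81 and 2.20, lowest in input replicate 3. Within IP alone, replicate 2 was the highest library for both, so their order of ratios rests on the input levels. Granule cell genes were split, with number 2 highest for 3 of 10: Zic1 (0.915 against 0.528 and 0.317), Zic2 and Zic4. Number 2 gave the lowest ratio for Cbln3, 0.238 against 3.76 and 3.69, and for Neurod1, 0.429 against 0.880 and 0.930.

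**Figure D3:**
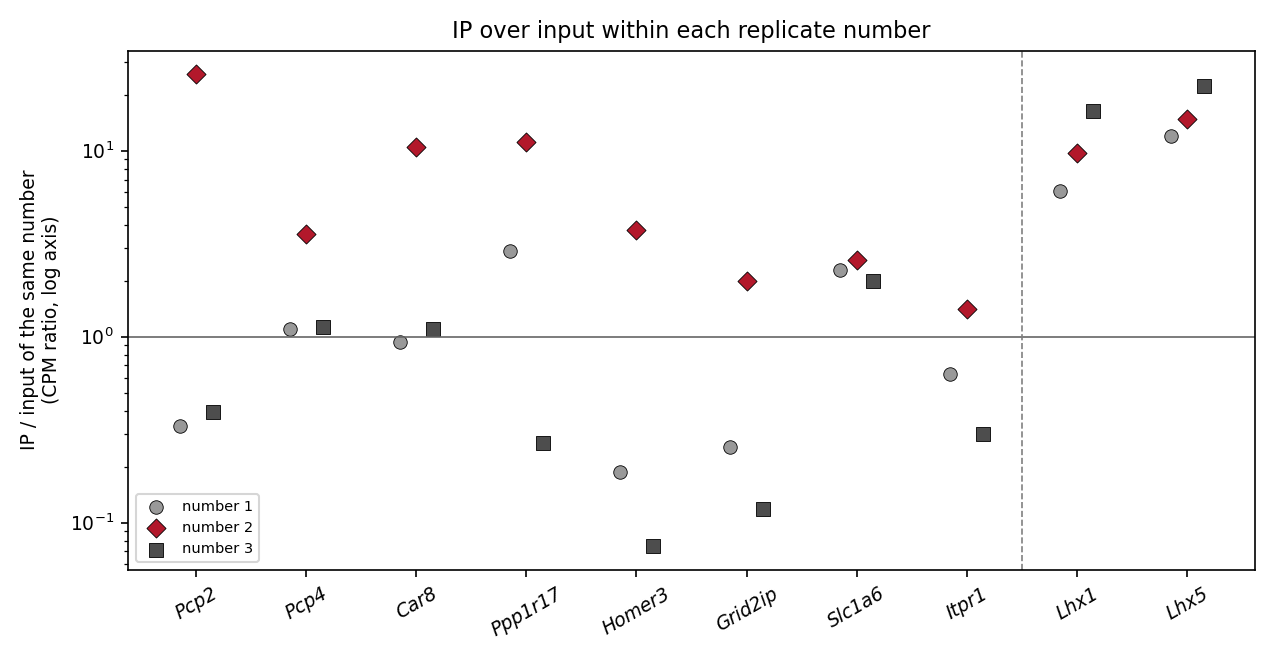
Ratio of IP CPM to input CPM (log axis) within each replicate number for the 8 Purkinje cell genes and for Lhx1 and Lhx5. The red diamond of number 2 is highest for all 8 Purkinje cell genes, up to 25.8 for Pcp2. Lhx1 and Lhx5 are highest for number 3 (16.4 and 22.4), where their input levels were lowest.

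A further list of 27 genes with strong expression in Purkinje cells, many of them shared with other neurons, was read in the same way. Of these, 7 passed 2-fold in IP replicate 2 and 0 of the 26 with at least 1 CPM passed in input replicate 2, against 0.994% and 0.436% of all genes tested. Of tested genes with at least 1 CPM, 171 of 13393 passed in IP replicate 2 and 75 of 14667 in input replicate 2. IP replicate 2 was the highest IP library for 19 of the 27, against 25.3% of all genes. The summed level of the list was 3880, 4722 and 3554 CPM in IP and 3673, 3213 and 3307 CPM in input, with none at 0.

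Among the genes past the fold, and named for that reason, were Atp2a3, Plcb3, Skor2, Itpka, Gng13 and Calb1. Calb1, the calcium-binding protein calbindin, had 102, 319 and 73.8 CPM in IP and 65.2, 69.1 and 126 in input. Gng13, a G protein gamma subunit, had 16.7, 98.3 and 16.4 CPM in IP and 5.75, 8.67 and 4.49 in input, so that all IP libraries exceeded all inputs. Of these genes, Calb1 was highest in input replicate 3 among inputs and Gng13 in input replicate 2. Skor2, a transcriptional corepressor needed in developing Purkinje cells, had 0.502, 3.30 and 0.257 CPM in IP and at most 0.148 in input, too few counts to enter the test. Plcb3, a phospholipase C found in the stripes of Purkinje cells that also carry Aldoc, had 0.884, 9.40 and 1.0 CPM in IP against 6.03, 6.37 and 5.73 in input. IP replicates 1 and 3 of Plcb3 thus lay below every input library and IP replicate 2 above them.

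Most of the abundant genes of the further list gave small ratios. Aldoc, the aldolase known as zebrin II that is also made by astrocytes, Atp2b2, a calcium pump, and Pcp4l1, a relative of Pcp4, had ratios of 0.960, 0.787 and 0.614 in IP replicate 2. Pvalb, parvalbumin, stood at 1.33, Rora at 1.5, Rgs8, a regulator of G protein signalling, at 1.58, and Plcb4, the phospholipase C of the stripes that lack Aldoc, at 1.27. Dner, a Notch ligand of Purkinje dendrites, was at 1.08.

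**Figure D4:**
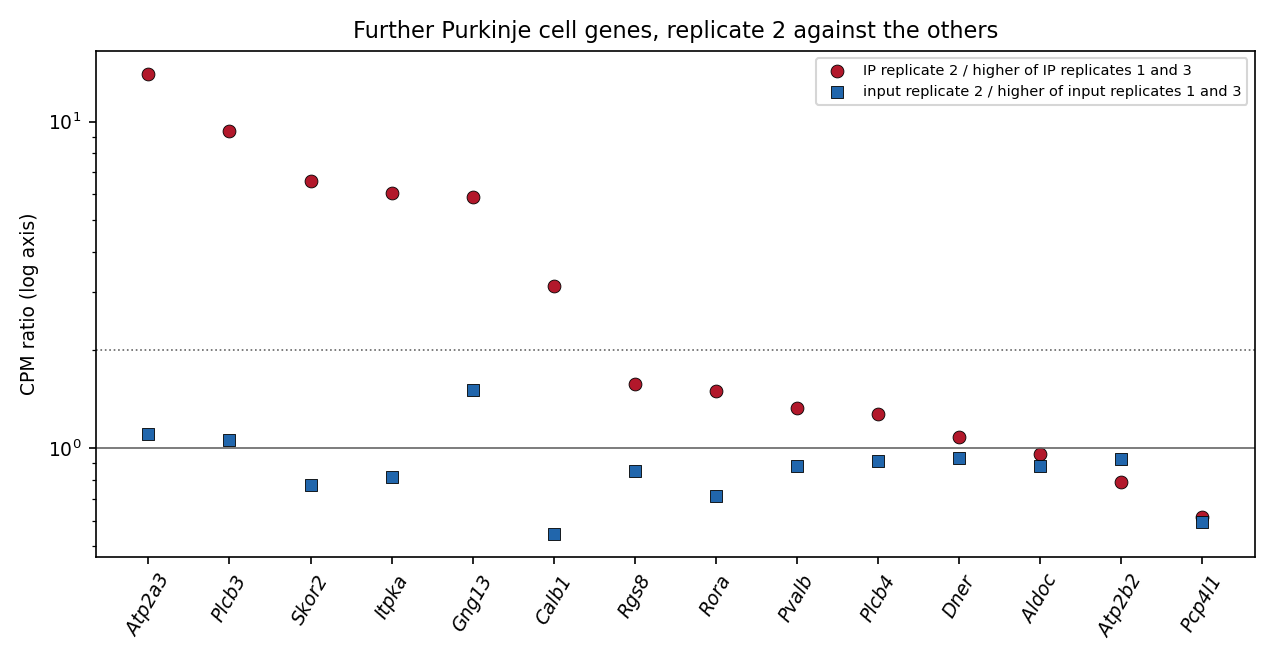
CPM ratio (log axis) of replicate 2 to the higher of replicates 1 and 3 for the 14 further Purkinje cell genes named in the text, red circles for IP and blue squares for input, ordered by the IP ratio. The dotted line marks 2-fold: 6 red circles lie above it, from Atp2a3 (14.0) to Calb1 (3.13), and no blue square does.

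Beyond the 8 genes, the 10 genes whose pattern was most like that of the 8 were taken as those with the largest ratio in IP replicate 2 among genes with at least 5 CPM there. They were Iltifb, Sycp1, Arhgef33, Zfp385c, B3gnt5, Stk17b, Fam107b, Plcb3, Pde5a and Tfap2b, and Plcb3 and Tfap2b were also in the lists above. Iltifb, an interleukin gene with a near-identical neighbour, had 7.89 CPM in IP replicate 2 from 323 counts and 0 and 1 count in IP replicates 1 and 3, a ratio of 338 with a counting interval of 60.3 to 13397. Sycp1, a meiotic chromosome axis protein, had 6.74 CPM from 276 counts against 1 count in each of the others, a ratio of 282 (50.2 to 11180).

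Arhgef33, an exchange factor of small GTPases, had 0.765, 27.2 and 0.886 CPM in IP and 1.44, 1.90 and 1.16 in input. Pde5a, the phosphodiesterase of cyclic GMP, had 2.44, 21.1 and 2.38 CPM in IP against 10.8, 10.5 and 7.11 in input. Stk17b, a serine/threonine kinase, had 1.34, 29.2 and 0.886 CPM in IP and 8.37, 10.9 and 8.94 in input. For correlations over the 6 libraries, 0.5 was added to CPM before taking log2, which narrows differences among low values. These 10 genes correlated with Pcp2 at r = 0.972 for Iltifb, 0.982 for Arhgef33 and 0.788 for Pde5a, with the lowest value at 0.617 for Tfap2b. Among the 8 genes, Car8 reached 0.995, Ppp1r17 0.940 and Homer3 0.876, and Slc1a6, Grid2ip, Pcp4 and Itpr1 lay between 0.501 and 0.597. These correlations rest on the same libraries, with IP replicate 2 apart from the rest, and describe them only.

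IP and input were then compared with edgeR's quasi-likelihood test across 17197 genes, with p-values adjusted by the Benjamini-Hochberg method over all of them and a threshold of 0.05. This asks which RNAs the tagged ribosomes carry above the input, and it holds IP replicate 2 among the 3 IP libraries, so each value is given with and without it. IP replicates 1 and 3 were also part of the contrast that chose the genes, so neither set of values is independent of that choice. With all 6 libraries, 1 of the 8 genes was called higher in IP, where 26% of all genes tested were called higher. No gene of the 8 was called lower, where 27.9% of all genes were, and the count lower was also 0 at an unadjusted p under 0.05 by edgeR, and 0 by DESeq2 among the 4 genes for which it gave an adjusted p. The median log2 fold change of the 8 genes was 0.98 against -0.01 over all genes.

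The gene called was Slc1a6, with a mean of 13.9 ± 5.75 CPM in IP against 5.92 ± 1.84 in input (SD, n = 3 each). Its log2 fold change was 1.23 (SE 0.36, edgeR adjusted p = 0.0189), with the same direction in 3 of 3 same-numbered pairs. Without IP replicate 2 it had a log2 fold change of 0.91 and an adjusted p of 0.101, and without input replicate 3 a log2 fold change of 0.98 and an adjusted p of 0.0652 by edgeR. The Slc1a6 call was thus lost without IP replicate 2 and without input replicate 3. Its paralogs of glia, Slc1a2 and Slc1a3, were called lower in IP, at -3.02 (SE 0.21) and -3.77 (SE 0.20) on the log2 scale.

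The 4 genes with the largest ratios between IP libraries were not called. Pcp2 had a mean of 26.1 ± 44.9 CPM in IP against 1.28 ± 1.52 in input (SD, n = 3 each), and its log2 fold change of 4.34 (SE 2.41) had an edgeR adjusted p of 0.179. Car8 had 200 ± 308 CPM in IP and 32.0 ± 18.4 in input, and a log2 change of 2.64 (SE 1.42), at an adjusted p of 0.169. Ppp1r17 stood at 2.64 (SE 1.54, adjusted p = 0.191) and Homer3 at 0.73 (SE 1.23, adjusted p = 0.641). For these genes the SD in IP exceeded the IP mean, and IP and input overlapped. Pcp4 stood at 0.74 on the same scale (SE 0.31, adjusted p = 0.0710), Grid2ip -0.73 (SE 0.71, adjusted p = 0.415) and Itpr1 -0.51 (SE 0.37, adjusted p = 0.268).

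Without IP replicate 2, the sign turned for Pcp2, Car8, Ppp1r17 and Homer3. In that fit 3 of the 8 genes were called lower in IP, where 26.5% of 17834 genes tested were, and the median log2 fold change of the 8 was -1.10 against -0.08 over all genes. Homer3 stood at -3.20 (SE 0.52) with an edgeR adjusted p of 0.00327. Grid2ip stood at -2.27 (SE 0.44, adjusted p = 0.00600) and Itpr1 at -1.12 (SE 0.25, adjusted p = 0.0119). For Homer3 and Grid2ip, IP replicates 1 and 3 lay below every input library, and Itpr1 did so as well. Pcp4 kept its sign, at 0.34 (SE 0.26, adjusted p = 0.320). Pcp2 was at -3.18 (SE 1.21, adjusted p = 0.0692), Car8 at -0.60 (SE 0.43, adjusted p = 0.290) and Ppp1r17 at -1.07 (SE 0.80, adjusted p = 0.302). No gene of the 8 was called higher in that fit, where 21.6% of all genes were, and the count was also 0 at an unadjusted p under 0.05 by edgeR. All 8 genes passed the filter on low counts, Pcp2 with at least 10 counts in 4 libraries, Homer3 in 5 and the others in 6.

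**Figure D5:**
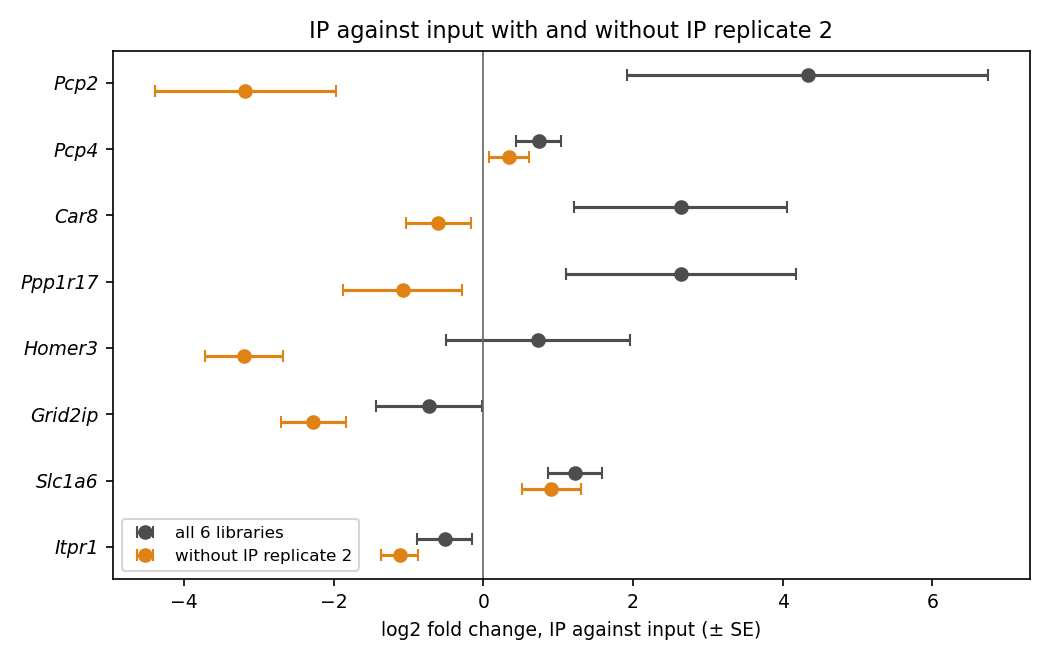
Log2 fold change of IP against input, with its SE as the bar, for the 8 Purkinje cell genes from all 6 libraries (grey) and without IP replicate 2 (orange). Pcp2, Car8, Ppp1r17 and Homer3 lie above 0 in grey and below 0 in orange, from 4.34 to -3.18 for Pcp2, while Slc1a6 stays above 0 in both (1.23 and 0.91).

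Lhx1 and Lhx5 kept their calls in both fits. Lhx5 had a log2 fold change of 3.93 with all libraries and 3.82 without IP replicate 2 (edgeR adjusted p = 1.29e-05 and 0.000284), and Lhx1 had 3.20 and 3.03 (adjusted p = 0.000129 and 0.00143).

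Of 26 genes around the calcium release route tested between IP and input, other than the 8, 6 were higher, 6 lower and 14 not called with all libraries, where 26% of all genes were higher and 27.9% lower. Their median log2 fold change was 0.08. Without IP replicate 2, 6 were higher and 8 lower, against 21.6% and 26.5% of all genes. These shares lay near those of all genes, so the single genes below describe only themselves. Calm2 and Calm3, which encode calmodulin, the partner of Pcp4, rose by 0.85 (SE 0.11) and 0.91 (SE 0.13) on the log2 scale. Cbln1, the secreted ligand of GluD2, rose by 2.33 (SE 0.16, edgeR adjusted p = 2.57e-05), with 218, 160 and 181 CPM in IP against 41.9, 37.9 and 31.6 in input. Homer2 fell by 1.68 (SE 0.17) and Itpr2, a calcium channel paralog of Itpr1, by 2.01 (SE 0.23). In IP replicate 2, 3 of the 25 genes with at least 1 CPM passed 2-fold, against 0.994% of all genes tested. The 3 included Plcb3 and Itpka, and all were also in the further Purkinje cell list.

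Of 13 paralogs of the 8 genes tested, 7 were lower in IP and none was higher by edgeR, also at an unadjusted p under 0.05, where 27.9% of all genes were lower and 26% higher. In IP replicate 2, 0 of 11 with at least 1 CPM passed 2-fold, against 0.994% of all genes. Car10, a carbonic anhydrase-related paralog of Car8, had 134, 128 and 147 CPM in the IP replicates, and Homer1 had 39.9, 45.3 and 37.4.

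Of the further Purkinje cell genes, 26 were tested between IP and input, and 8 were higher, 2 lower and 16 not called, where 26% of all genes were higher and 27.9% lower. Their median log2 fold change was 0.35. Without IP replicate 2 the counts were 5 higher and 5 lower, against 21.6% and 26.5% of all genes, and the median was 0.14. The share called higher was near that of all genes in both fits. Gng13 rose by 2.80 (SE 0.72, edgeR adjusted p = 0.0125) and by 1.36 without IP replicate 2 (adjusted p = 0.00861). Pvalb rose by 1.92 (SE 0.25), with 280, 451 and 340 CPM in IP against 117, 103 and 62.7 in input. Rora fell by 1.22 (SE 0.21), with 188, 281 and 175 CPM in IP against 560, 398 and 539. Plcb3 was not called with all libraries and was called lower without IP replicate 2, at -2.71 (edgeR adjusted p = 0.000659).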

How the data were processed

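RNA was measured by TRAP sequencing in 3 IP and 3 input libraries, grouped by sample title. The authors deposited raw counts, with no normalization, for 32531 gene symbols in each library. STAR 2.0.0e, HTSeq and build mm10 are named in the submitters' processing notes, without their roles. Of annotation, counting mode and strand, the sources used here say nothing, so reads from overlapping genes on opposite strands cannot be told apart. Summary lines and the entry for unknown genes were left out of totals. That entry held at most 1 count in a library. Alignments that were not unique made up 43.8% to 44.5% of all counts in an IP file and 31.8% to 33.0% in an input file. Ambiguous reads made up 1.59% to 1.68% in IP and 8.03% to 10.9% in input. Reads in no feature made up 7.74% to 7.86% in IP and 12.9% to 14.9% in input. The part of these differences between the groups in the comparison of IP with input was not tested.

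The filter filterByExpr, by group, with a minimum count of 10 and a minimum total of 15, left 17197 genes. IP and input were tested in R 4.3.3 with edgeR 4.0.16 (TMM, robust quasi-likelihood fit, two-sided F test, group as the only term), with p-values adjusted by Benjamini-Hochberg over all genes tested and a threshold of 0.05. The SE is the log2 fold change divided by the square root of F. A fit without a library filtered genes afresh. Replicate 2 was set against the higher of replicates 1 and 3 as a ratio of TMM-scaled CPM, without a test, and called past 2-fold with at least 1 CPM. Shares of all genes past 2-fold are over the 17197 tested, of which 13393 had at least 1 CPM in IP replicate 2 and 14667 in input replicate 2. Counts within lists can include genes that were not tested, such as Skor2 and Gabra6. The 95% counting intervals of these ratios are exact conditional binomial (Clopper-Pearson) intervals. Counts per kb use the union of GENCODE M21 exons. Promoters are from RefSeq. Scripts were tested on simulated data with 200 changed genes among 17197. The test of IP against input recovered 49% of the 2-fold and 77% of the 4-fold changes, and 7.35% of its calls were false. In the data 4467 genes were called higher and 4794 lower, far more than the 200 changed in the simulation. The rates of the simulation therefore need not hold for the data. A gene that was not called may still differ.

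The 8 genes, the lists and the rules were chosen with earlier results of these data known. Named genes were the 8, Lhx1 and Lhx5, the 10 most abundant of the further Purkinje cell list (some are not reported here), up to 3 of each other list, and the 10 genes of most similar pattern with at least 5 CPM in IP replicate 2. Of the further list, Atp2a3, Plcb3, Skor2, Itpka, Gng13 and Calb1 were named for passing 2-fold. Cbln1, Cbln3, Neurod1, Gabra6, Drd1, Ppp1r1b, Homer1, Homer2, Itpr2 and Slc1a3 were named after their values were seen, where a list's rule does not name them. Gata3, Pax7, Pou4f1, Otx2 and Zic4 were likewise named after their values were seen.

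Per the labels, IP and input of 1 replicate number share a lane number, and whether they share a run or an animal is not stated. Deviations of same-numbered libraries from their group means had correlations of 0.249, 0.0964 and 0.113. Alternatives were RLE and library-total scaling, other low-count filters, a replicate block, DESeq2 1.42.0 and leaving out each library. Leaving out both libraries of replicate 2, and IP replicate 2 with input replicate 3, were chosen after seeing the data.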

Additional observations from a re-analysis of the deposited data

How the results depend on the processing

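With the replicate block, the log2 fold change of Homer3 was -1.28 (edgeR adjusted p = 0.470), and the block changed no call among the 8 genes. DESeq2 called Pcp4 higher (0.71, adjusted p = 0.0393) and gave no adjusted p for Pcp2, Car8, Ppp1r17 and Homer3. Without IP replicate 1, edgeR also called Pcp4 higher (0.97, adjusted p = 0.0297).

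Leaving out single libraries or both libraries of replicate 2 gave log2 fold changes of -3.18 to 6.01 for Pcp2, 0.19 to 0.97 for Pcp4, -0.60 to 3.22 for Car8, -1.07 to 3.21 for Ppp1r17 and -3.20 to 1.31 for Homer3. The ranges were -2.41 to -0.25 for Grid2ip, 0.91 to 1.53 for Slc1a6 and -1.18 to -0.22 for Itpr1, with 3209 to 4384 genes higher and 3561 to 4783 lower. Without both libraries of replicate 2, Pcp2 stood at -1.44 (edgeR adjusted p = 0.188), Ppp1r17 at -0.51 (0.662), Car8 at 0.04 (0.877) and Homer3 at -2.92 (0.0158), Slc1a6 was not called (1.16, 0.0941), and Grid2ip (-2.41, 0.0120) and Itpr1 (-1.18, 0.0237) were called lower. Without IP replicate 2 and input replicate 3, Pcp2 was at -3.66 (edgeR adjusted p = 0.0256), Car8 at -0.88, Ppp1r17 at -0.95, Homer3 at -3.27 (0.00594), Grid2ip at -2.14 (0.0119) and Itpr1 at -0.89 (0.00891), and Slc1a6 was not called (0.66, 0.169). Fits with fewer libraries have less power by construction, and the cause of the other changes was not tested. Slc1a6 was called in 10 of 14 settings, and Lhx1 and Lhx5 in 14 of 14.

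Scaling by library totals moved the median log2 fold change of all genes from -0.01 to -0.15, and the ratios in IP replicate 2 to 1.75 for Pcp4 and 2.30 for Itpr1. With a minimum count of 30, 42 genes passed 2-fold in input replicate 2, against 75. Depth limits Pcp2 and Homer3 in IP replicates 1 and 3, which rest on 5 to 17 counts.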
